A study of Oryza sativa with 6 samples.

Results

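ABC transporters are membrane pumps that use ATP to move metabolites, hormones, lipids and metals across membranes. Plants group them by letter into subfamilies. Full-size members of subfamily G, also called pleiotropic drug resistance (PDR) proteins, mostly sit in the plasma membrane of plants and export defence compounds, hormones and other substrates, and many of the genes known in plants respond to jasmonate, pathogens or metals. Half-size G members carry wax, cutin and suberin precursors, and members of subfamily C load conjugates and organic anions into the vacuole.

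The ABC transporter genes described here were chosen by name, from a gene symbol or synonym of the form ABCA to ABCI, PDR or MRP with a number. 15 genes of the 39387 in the RefSeq gene table met this rule. 13 of them are in subfamily G, 1 in subfamily C and 1 in subfamily I, and 12 of the 13 in subfamily G also have a PDR name, which marks full-size transporters. No gene of another subfamily was reached by name, so the many rice ABC genes that carry only locus numbers are not covered. 12 of the 15 had a probe set in the array annotation, out of 17905 genes with a probe set of their own, and these 12 genes had 15 probe sets. OsABCG35, OsABCG43 and OsABCG53 had none and were not analysed here.

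The arrays compared roots of Huahui 1 (HH1), a transgenic rice line made in the background of the indica cultivar Minghui 63 and known for a Bt insecticidal gene, with roots of non-transgenic Minghui 63 (MH63), its parent. Both genotypes were sampled at a plant age of 30 days after growth in nutrient solution in a climate chamber, with 3 biological replicates each and 1 Affymetrix rice array per replicate. HH1 is a single transgenic line, and the sources used here do not give how many plants went into a replicate. The stated aim of the series was to look for changed genes and pathways as leads to unintended effects of the transgene.

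With 3 arrays per genotype, precision is limited throughout. Signals are the deposited probe set intensities, in arbitrary units on a linear scale, and are compared between arrays for 1 probe set and not between genes. Background is given by reporter probe sets, 64 in number, for marker genes foreign to rice. Their 95th percentile, called the reporter level, lay between 37.1 and 42.3 on the 6 arrays. Median signals over all probe sets ran from 33.1 to 33.8. The 18S ribosomal RNA control read 3446 in HH1 replicate 2 and from 811 to 1457 on the other arrays. Root markers were present on all arrays. OsNIP2;1 (Lsi1), the silicon influx transporter of the root, read from 4801 to 8585, and 14 of 15 root marker genes with a probe set exceeded the reporter level on at least 1 array, the exception being OsSCR1. The HH1 arrays differed from one another more than the MH63 arrays did, with a median SD of log2 signals of 0.20 among HH1 arrays and 0.15 among MH63 arrays over the tested probe sets.

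12 of the 15 ABC probe sets, from 10 genes, were in the brighter 50% of the array that was tested, and all 12 exceeded the reporter level on all 6 arrays. The other 3 probe sets exceeded it on no array. None of the 12 tested probe sets passed the genotype comparison (limma over 28597 probe sets, Benjamini-Hochberg, adjusted p of 1.00 for each), where 0.112% of all tested probe sets did. Without adjustment, 0 of 12 were under 0.05, where 4.01% of all were, and the smallest unadjusted p in limma was 0.075, for OsABCG37. The HH1 and MH63 arrays overlapped for all 12 probe sets. Over all tested probe sets, HH1 lay wholly above MH63 for 3.51% and wholly below for 5.27%. In their means 8 of the 10 genes were above 0 and 2 below, with a median log2 difference (HH1 minus MH63) of 0.45. Over all 14815 tested genes that median was -0.03, and 41.6% were above 0. The median of the ABC genes was 0.10 without HH1 replicate 2 and 0.80 without HH1 replicate 3. In these whole-root samples, fewer cells of a type and less RNA per cell cannot be told apart.

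**Figure D1:**
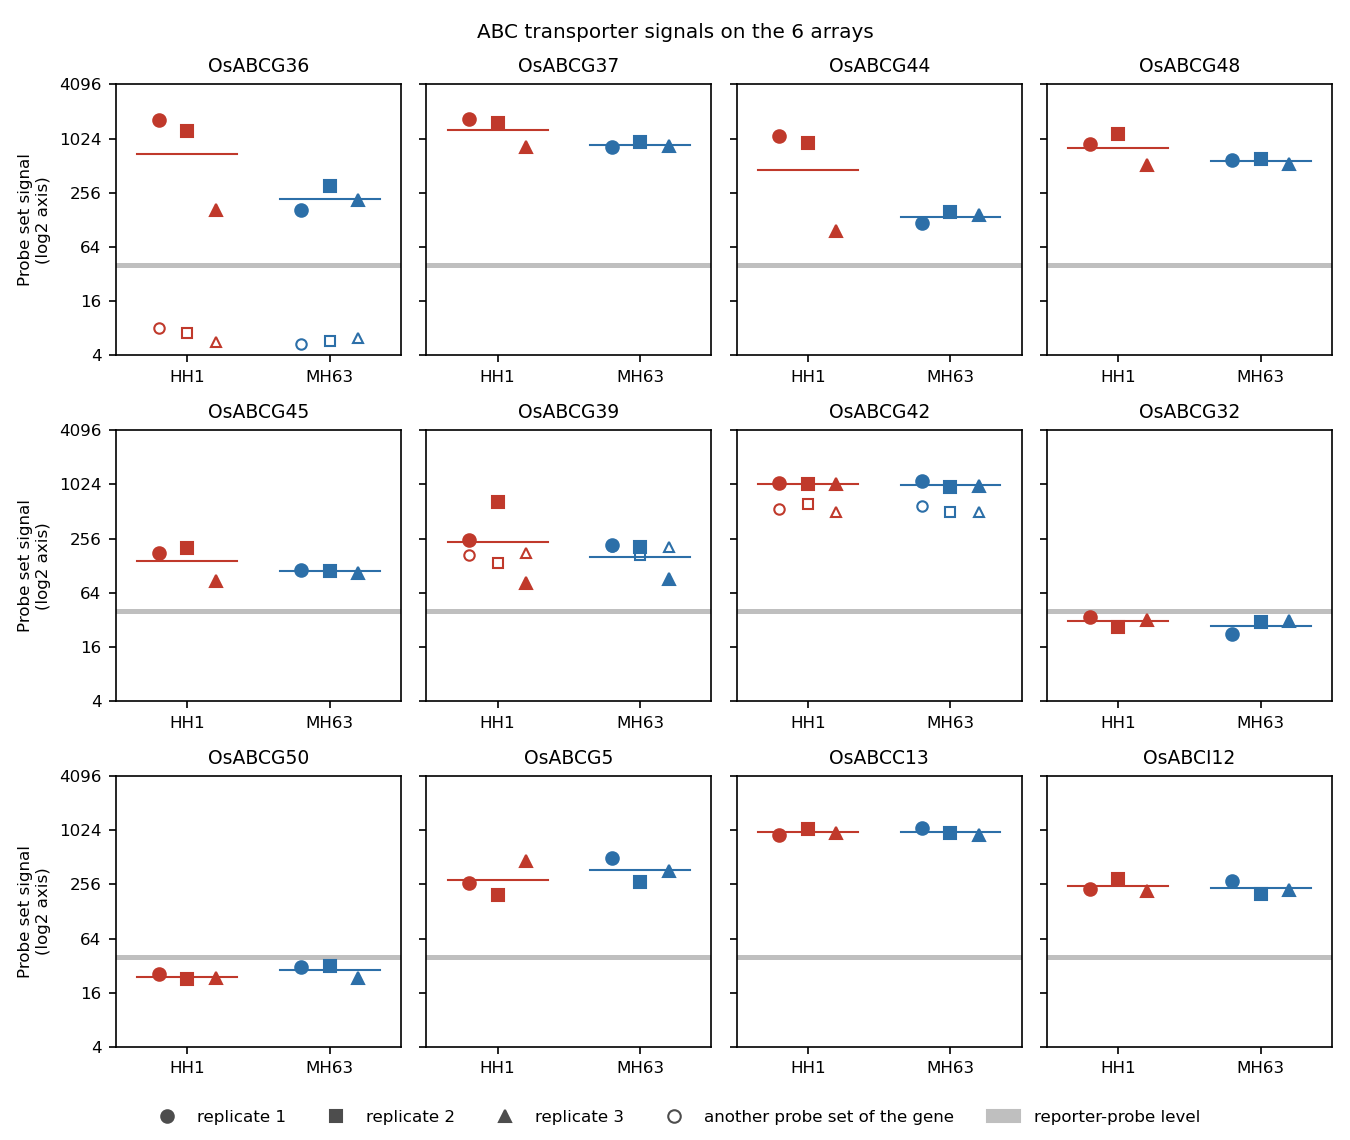
Signal of every ABC transporter probe set on each array (log2 axis), with HH1 in red and MH63 in blue. Filled symbols are each gene's brightest probe set, open symbols its other probe set, horizontal lines the mean log2 signal of a genotype, and the grey band the reporter-probe level on the 6 arrays. For OsABCG36 and OsABCG44 HH1 replicates 1 and 2 lie far above the other 4 arrays, and OsABCG32 and OsABCG50 lie below the band.

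The widest spread was found in full-size G transporters. OsABCG36 (LOC4327728, also OsPDR9) is a plasma membrane exporter that limits cadmium in rice roots, and its transcript is known to respond to jasmonate and metals. Its signal was 1658, 1232 and 163 in HH1 replicates 1, 2 and 3, against 163, 306 and 214 in MH63 replicates 1, 2 and 3. Replicates 1 and 2 of HH1 were the highest of all arrays, while replicate 3 was level with the lowest MH63 array. The log2 difference was 1.65 with a standard error of 0.83 and a 95% interval from -0.33 to 3.64 (limma, adjusted p of 1.00), which is from 0.797-fold to 12.4-fold. The highest HH1 array was 10.2-fold above the lowest, against 1.88-fold for MH63. The other probe set of the gene read from 5.56 to 8.01 in HH1 and from 5.33 to 6.26 in MH63, all below the reporter level, and gives no information on the difference. The ID of the brighter probe set ends in _a_at, also a shared design, made for several transcripts of 1 gene, and a part of its signal from a neighbouring or similar gene was not tested.

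OsABCG44 (LOC4345450, also OsPDR17) showed the same order of HH1 arrays. It read 1108, 918 and 95.9 in HH1 replicates 1, 2 and 3, against 117, 157 and 146 in MH63 replicates 1, 2 and 3. HH1 replicate 3 was below all MH63 arrays, and the other 2 HH1 arrays were above them. The log2 difference was 1.73 with a standard error of 0.88 and a 95% interval from -0.36 to 3.81 (limma, adjusted p of 1.00). The ID of this probe set ends in _x_at, a type that can bind related transcripts, so the gene behind the signal is uncertain.

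OsABCG37 (LOC4327730, also OsPDR8) lies close to OsABCG36 in the gene order of the RefSeq annotation, with 1 gene between them, and OsABCG35 is the direct neighbour of OsABCG36 on its other side. OsABCG37 read 1696, 1536 and 822 in HH1 replicates 1, 2 and 3, against 828, 930 and 857 in MH63 replicates 1, 2 and 3. The order of the HH1 arrays was that of OsABCG36 and the range was smaller, 2.06-fold in HH1 and 1.12-fold in MH63. Its log2 difference was 0.57 with a standard error of 0.27 and a 95% interval from -0.07 to 1.21 (limma, adjusted p of 1.00). Related transcripts can bind this probe set too, and a part of its signal from a neighbouring or similar gene was not tested.

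OsABCG48 (LOC4350807, also OsPDR3), reported to raise cadmium tolerance when expressed in Arabidopsis, read 896, 1144 and 526 in HH1 replicates 1, 2 and 3, against 586, 613 and 533 in MH63 replicates 1, 2 and 3. Here HH1 replicate 2 was the highest array, and HH1 replicate 3 was again the lowest of all. The log2 difference was 0.50 with a standard error of 0.28 and a 95% interval from -0.16 to 1.15 (limma, adjusted p of 1.00). OsABCG45 (LOC4346210, also OsPDR1) read 178, 203 and 85.7 in HH1 replicates 1, 2 and 3, against 115, 112 and 105 in MH63 replicates 1, 2 and 3. The MH63 arrays of this gene were nearly equal, within 1.09-fold, and HH1 lay on both sides of them. Its log2 difference was 0.40 with a standard error of 0.32 and a 95% interval from -0.35 to 1.15 (limma, adjusted p of 1.00).

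OsABCG39 (LOC4328687, also OsPDR7) had a pair of tested probe sets that disagreed. The brighter one read 245, 660 and 82.8 in HH1 replicates 1, 2 and 3, against 220, 207 and 89.9 in MH63 replicates 1, 2 and 3. In both genotypes replicate 3 was low, and only HH1 replicate 2 stood well above the rest. The other probe set read 169, 138 and 178 in the HH1 arrays, against 209, 169 and 204 in the MH63 arrays, with its lowest value in HH1 replicate 2. The log2 differences were 0.57 with a standard error of 0.74 for the brighter and -0.26 with a standard error of 0.16 for the other (limma, adjusted p of 1.00 for both). No direction is therefore given for OsABCG39, and the difference of the brighter probe set changed sign, to -0.17, without HH1 replicate 2. OsABCG42 (LOC4341281, also OsPDR12) was steady. It read 1057, 1026 and 1030 in HH1 replicates 1, 2 and 3, against 1112, 954 and 985 in MH63 replicates 1, 2 and 3. The 95% interval of its difference ran from 0.856-fold to 1.22-fold (limma, adjusted p of 1.00), and that of its other probe set from 0.834-fold to 1.29-fold.

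Of the remaining full-size G genes, OsABCG32 (LOC4326812, also OsPDR16) read from 26.6 to 34.3 in HH1 and from 22.4 to 31.1 in MH63. OsABCG50 (LOC4352332, also OsPDR23) read from 22.7 to 25.5 in HH1 and from 23.5 to 31.5 in MH63. Both lay below the reporter level on every array of both genotypes, so no fold is given, and low signal here does not show that the transcripts were absent. Of the 9 full-size G genes with a probe set, 7 were thus measurable, and all 7 had a mean above 0, with a median log2 difference of 0.57 and no call. OsABCG39 counts among them through its brighter probe set only. Over all tested genes, 41.6% were above 0. In HH1 replicate 3, OsABCG36, OsABCG37, OsABCG39, OsABCG44, OsABCG45 and OsABCG48 lay below the MH63 mean of log2 signals. OsABCG42 lay just above it on that array.

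The half-size transporter OsABCG5 (LOC4332449, also RCN1), which is needed for suberin in the outer cell layers of rice roots and affects tillering, had the opposite order of HH1 arrays. It read 265, 194 and 465 in HH1 replicates 1, 2 and 3, against 504, 274 and 364 in MH63 replicates 1, 2 and 3. HH1 replicates 1 and 2 were the lowest of the 6 arrays, and HH1 replicate 3 lay inside the MH63 range. The log2 difference was -0.36 with a standard error of 0.36 and a 95% interval from -1.20 to 0.49 (limma, adjusted p of 1.00). OsCASP1, a gene of the Casparian strip that seals the endodermis, read 977, 550 and 1242 in HH1 replicates 1, 2 and 3, against 1418, 944 and 1353 in MH63 replicates 1, 2 and 3, and did not pass either. In both genes HH1 replicate 2 was the lowest and MH63 replicate 1 the highest of the 6 arrays. The list of suberin and cutin genes reached 5 genes by name, of which 4 were tested, and its wsl genes are white-stripe-leaf genes of chloroplasts rather than wax genes. The 4 tested genes were OsCASP1, wsl3, wsl6 and wsl8, while OsKCS20 was below the brightness filter. 0 of these 4 were above 0, with a median log2 difference of -0.35 and no call. The list therefore holds no tested gene of suberin or cutin synthesis, and its median does not describe that pathway.

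The members of other subfamilies had small log2 differences between the genotypes, and only OsABCC13 was steady between arrays. OsABCC13 (LOC4331585, also OsMRP5 and LPA2) is needed for normal phytic acid content of the rice grain. It read 907, 1049 and 961 in HH1 replicates 1, 2 and 3, against 1083, 947 and 895 in MH63 replicates 1, 2 and 3. The 95% interval of its log2 difference ran from -0.29 to 0.29 (limma, adjusted p of 1.00), which is from 0.816-fold to 1.22-fold. The phytate synthesis list had 4 of 9 tested genes above 0, with a median log2 difference of -0.05 and no call. Within it, the kinase gene OsITPK4 read 324, 273 and 65.6 in HH1 replicates 1, 2 and 3, against 90.1, 79.4 and 89.6 in MH63 replicates 1, 2 and 3. It was chosen for mention after its values were seen, and within HH1 its arrays had the order of OsABCG36, while within MH63 they did not.

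OsABCI12 (LOC4341938, also STAR1) is the nucleotide-binding partner of the membrane protein STAR2, and the pair is needed for aluminium tolerance of rice roots. OsABCI12 read 229, 295 and 214 in HH1 replicates 1, 2 and 3, against 276, 203 and 223 in MH63 replicates 1, 2 and 3. STAR2 read 265, 477 and 280 in HH1, against 331, 341 and 415 in MH63, replicates again in the order 1, 2 and 3. For both genes HH1 replicate 2 was the highest array. Their log2 differences were 0.07 with a standard error of 0.18 and -0.13 with a standard error of 0.24 (limma, adjusted p of 1.00 for both). The 95% interval of OsABCI12 ran from 0.778-fold to 1.42-fold. ART1, the transcription factor that controls both genes under aluminium, read from 240 to 257 in HH1 and from 222 to 277 in MH63. Nrat1, an aluminium importer of the root, read 588, 282 and 535 in HH1 replicates 1, 2 and 3, against 416, 396 and 549 in MH63 replicates 1, 2 and 3. Of the aluminium and metal list, apart from OsABCI12, 5 of 9 tested genes were above 0 with a median log2 difference of 0.01 and no call. The list includes ALS, an acetolactate synthase reached through a shared synonym, which is no transporter.

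**Figure D2:**
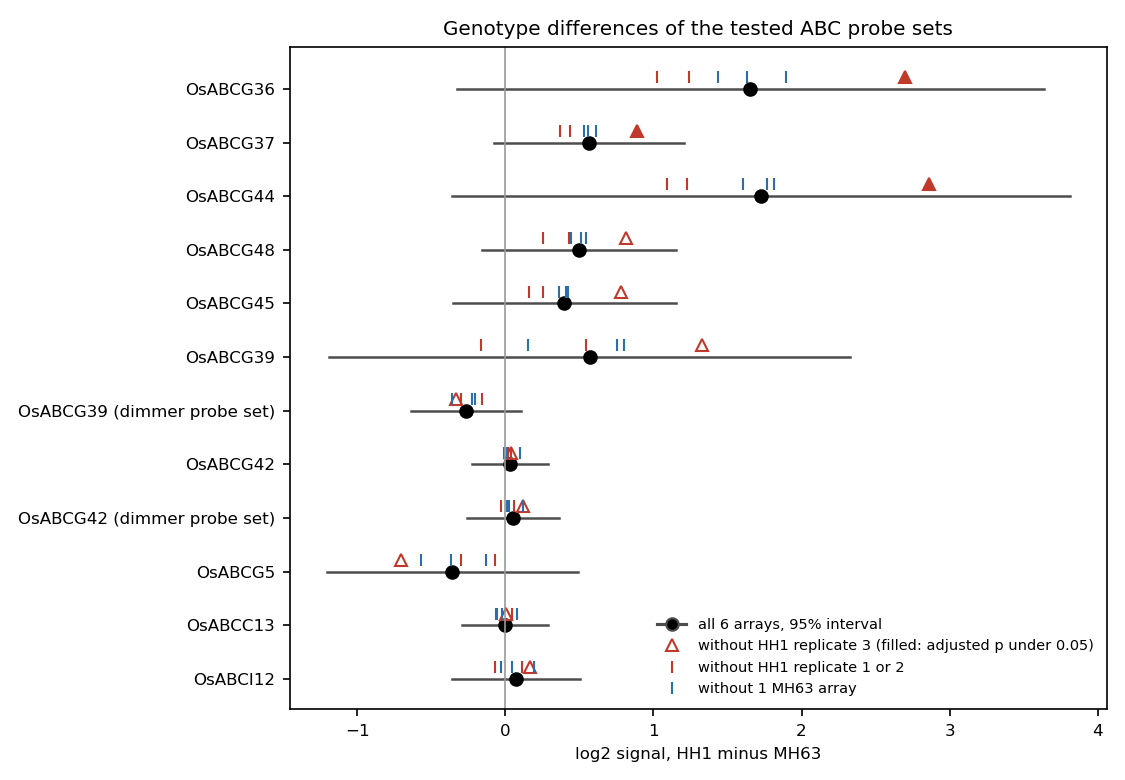
Log2 difference of each tested ABC probe set, HH1 minus MH63. Black points with lines are all 6 arrays with the 95% interval from limma, and coloured marks are the same difference with 1 array left out. Every interval includes 0. OsABCG36, OsABCG37 and OsABCG44 pass only without HH1 replicate 3.

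The outcome of the comparison turned on HH1 replicate 3. Without that array, 3 of the 12 probe sets passed, all higher in HH1 and all of full-size G genes, where 1.06% of all tested probe sets passed. The log2 difference was then 2.86 for OsABCG44, 2.70 for OsABCG36 and 0.89 for OsABCG37, and the adjusted p from limma was 0.0049, 0.015 and 0.041 in that order. For OsABCG48 and OsABCG45 the adjusted p was 0.12 and 0.11. Leaving out an array that was seen to differ from the other HH1 arrays favours the result. These values therefore describe the dependence on that array and are not a test of the genotypes. Over all tested probe sets HH1 replicate 3 was not the odd array. Its log2 signals correlated at 0.984 with MH63 replicate 3, the highest of all pairs, and at 0.932 with HH1 replicate 2, the lowest. With array weights, the lowest weight was that of HH1 replicate 2, 0.33, against 0.82 to 1.76 on the others. Leaving out HH1 replicate 1 gave 1.02 for OsABCG36 and 1.09 for OsABCG44, and leaving out HH1 replicate 2 gave 1.24 and 1.23. No ABC probe set passed in any other alternative, the lowest adjusted p from limma being 0.69.

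The HH1 arrays differed more than the MH63 arrays in most of these genes. The SD of log2 signals was larger among HH1 arrays than among MH63 arrays for 8 of 10 genes, where this held for 64.1% of all tested probe sets. It was 1.82 for OsABCG36, 1.96 for OsABCG44 and 1.50 for OsABCG39 among HH1 arrays, beside 0.46, 0.22 and 0.72 among MH63 arrays. These 3 genes were the ABC genes with an SD over 1 in HH1, where 2.67% of tested probe sets had such an SD. In MH63 0 of 10 genes did, where 1.32% did. OsABCG39 counts here through its brighter probe set only. Its other tested probe set had an SD of 0.19 in HH1 and 0.17 in MH63. At the other end OsABCG42 had an SD of 0.02 in HH1 and 0.12 in MH63.

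**Figure D3:**
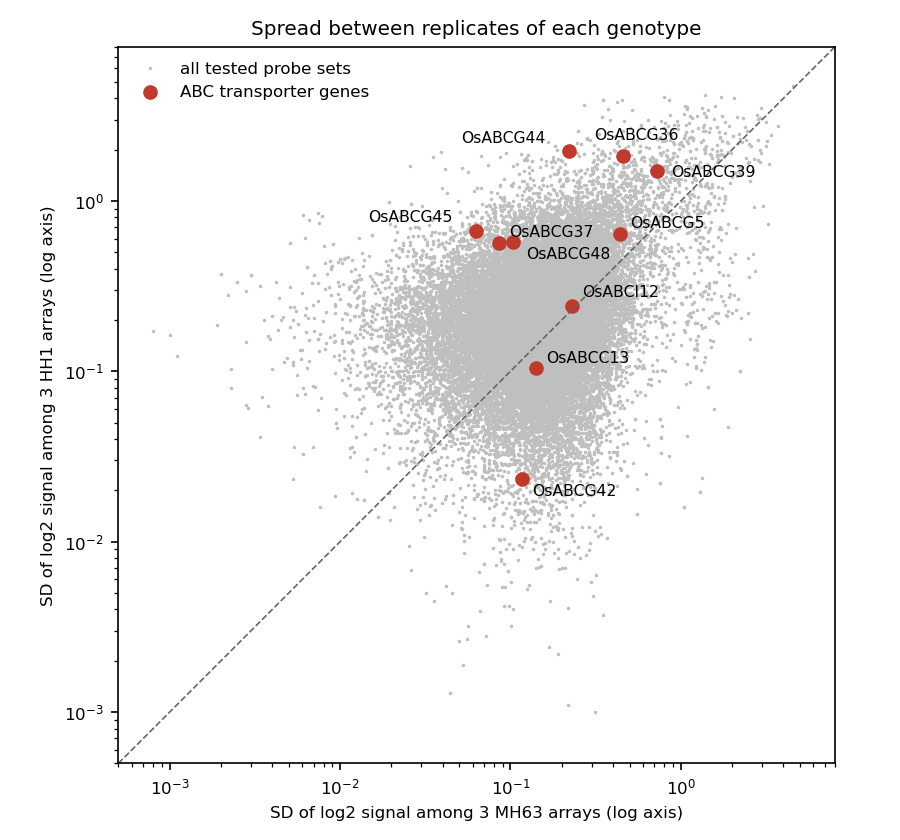
SD of log2 signals among the 3 HH1 arrays (vertical) against that among the 3 MH63 arrays (horizontal), on log axes, for the tested probe sets within the axes in grey and the brightest probe set of each tested ABC gene in red. The dashed line marks equal spread. OsABCG44, OsABCG36 and OsABCG39 lie high, between 1.50 and 1.96 in HH1, and OsABCG42 and OsABCC13 lie below the line.

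Single arrays within a genotype were also set side by side. Between HH1 replicates 1 and 3, 5 of 10 genes differed at least 2-fold (OsABCG36, OsABCG37, OsABCG39, OsABCG44 and OsABCG45), where 2.89% of all tested probe sets did. Between HH1 replicates 2 and 3 these were 6 of 10, where 8.68% did, with OsABCG48 and OsABCG5 in and OsABCG37 out. Between HH1 replicates 1 and 2 the only such gene was OsABCG39, where 5.89% of probe sets differed by as much. Among the MH63 pairs OsABCG39 was again the only one, between replicates 1 and 3, where 1.8% of probe sets differed by as much, and between replicates 2 and 3, where 2.61% did. Between MH63 replicates 1 and 2 it was 0 of 10, where 1.5% did. OsABCG39 counts in these pairs through its brighter probe set only. Its other tested probe set stayed within 1.29-fold in HH1 and 1.24-fold in MH63. HH1 replicate 3 was the lowest of all 6 arrays for 6 of 10 genes, where this held for 15.2% of all tested probe sets. For OsABCG36, OsABCG37 and OsABCG48 it was nearly level with an MH63 array, at 162.7 against 162.9, 822 against 828 and 526 against 533. For OsABCG39 it was the lowest in the brighter probe set only. Genes within 1 array share its RNA and its hybridisation and are not independent.

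Among the HH1 arrays, other gene lists varied along with the median of these transporters. The jasmonate list, made of JAZ repressors and synthesis enzymes, had 16 of 19 tested genes above 0, a median log2 difference of 0.40 and no call. Its median signal, relative to each gene's mean, was 0.35, 0.42 and -0.27 on the log2 scale in HH1 replicates 1, 2 and 3, against -0.26, -0.10 and -0.21 in MH63 replicates 1, 2 and 3. The diterpenoid phytoalexin list, whose products are the main antimicrobial diterpenes of rice, had 11 of 11 tested genes above 0, a median log2 difference of 1.37 and no call, and its median signal was 1.77, 1.90 and -1.91 in HH1, against -0.78, -0.16 and -0.75 in MH63. The same measure for the 10 ABC genes was 0.36, 0.61 and -0.37 in HH1, against -0.01, -0.19 and -0.29 in MH63. In all 3 lists HH1 replicates 1 and 2 were the high arrays. Within MH63 the lists differed, with the ABC median highest in replicate 1 and the jasmonate and diterpenoid medians highest in replicate 2. OsABCG5, OsABCC13 and OsABCG42 did not share the HH1 pattern, as their lowest HH1 array was not replicate 3. In the diterpenoid list CYP76M5 exceeded the reporter level on 2 of the 6 arrays and OsDTC1 on 3. HH1 replicates 1 and 2 were among these, so both genes passed the brightness filter through arrays where they were high. CYP99A2, a cytochrome P450 of momilactone synthesis, read 2302, 2904 and 61.6 in HH1, against 48.8, 330 and 174 in MH63, and OsMAS, the momilactone A synthase, read 526, 471 and 60.5 in HH1, against 51.4, 107 and 99.0 in MH63. These lists share arrays with the transporters, and what moves them was not tested.

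**Figure D4:**
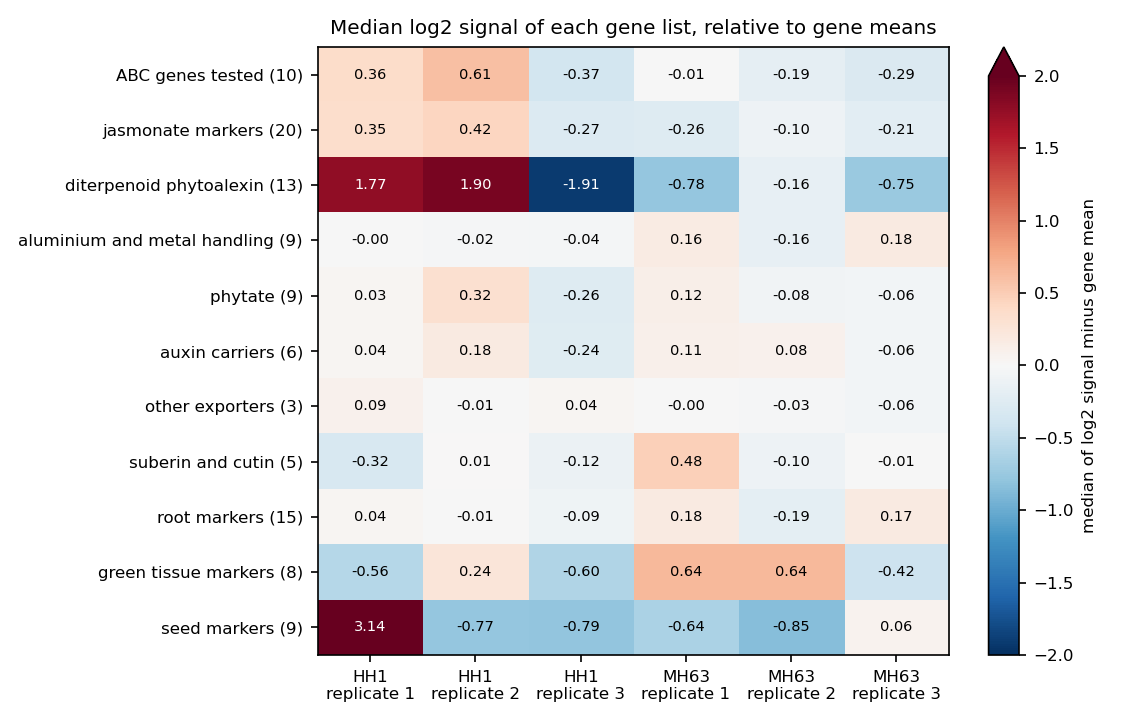
Median log2 signal of the tested ABC genes and of related gene lists on each array, after subtraction of the mean of each gene, with the number of genes in parentheses (for the lists, all with a probe set). Red is above and blue below the mean. The ABC, jasmonate and diterpenoid rows are highest in HH1 replicates 1 and 2, and the seed marker row stands out in HH1 replicate 1 at 3.14.

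Auxin carriers had a median signal, on the same relative log2 scale, of 0.04, 0.18 and -0.24 in HH1 replicates 1, 2 and 3, against 0.11, 0.08 and -0.06 in MH63 replicates 1, 2 and 3. HH1 replicate 3 was the lowest array here too. They had 2 of 6 tested genes above 0, a median log2 difference of -0.04 and no call, and the list holds BHLH123, a panicle gene reached through a shared name. The other exporters were the phytosiderophore exporters tom1 and tom2, plus TOM20, a mitochondrial import protein reached through a shared name, and 2 of 3 were above 0 with a median log2 difference of 0.08 and no call. tom1 read from 2920 to 3169 in HH1 and from 2781 to 2893 in MH63 with a log2 difference of 0.09 and no call. Its HH1 and MH63 arrays did not overlap, with HH1 the higher, which held for 3.51% of all tested probe sets.

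Markers of other tissues also varied between arrays. The summed signal of 9 seed storage markers was 10434, 688 and 414 in HH1 replicates 1, 2 and 3, against 615, 466 and 951 in MH63 replicates 1, 2 and 3. Most of the sum in HH1 replicate 1 came from prolamin (4386), RA14 (3889) and GLUB-5 (1274), and GLUB-4 was above the reporter level on no array. GLUA-3, a glutelin, read 110, 157 and 51.6 in HH1 replicates 1, 2 and 3, against 11.1, 9.59 and 6.86 in MH63 replicates 1, 2 and 3. GLUA-3 was above the reporter level on all 3 HH1 arrays and on no MH63 array, with HH1 replicate 2 the highest. It was below the brightness filter and was not fitted, and how many probe sets split the genotypes in this way was not counted. GLUA-2 had its lowest value, 240, in HH1 replicate 1. Of 8 green tissue markers, the summed signal was 577, 1719 and 477 in HH1 replicates 1, 2 and 3, against 2019, 2092 and 465 in MH63 replicates 1, 2 and 3, and RBCS1 was below the reporter level on all. CAB2R, a light-harvesting protein gene, made up most of the higher sums, with 166, 1109 and 63.2 in HH1, against 1368, 1373 and 30.2 in MH63. GOS5 was also highest in HH1 replicate 2 and MH63 replicates 1 and 2, with 36.5, 142 and 24.6 in HH1, against 147, 143 and 32.9 in MH63. OsGLK2, OsPSAG and OsGLK1 were highest on the same arrays, OsGLK1 near the reporter level. OsrbcS did not follow CAB2R, with 188, 205 and 200 in HH1, against 135, 189 and 198 in MH63. PSB28 did not follow it either, and was lowest in HH1 replicate 2. The part of seed or green material in the values of OsABCG36, OsABCG44, OsABCG39 and the other transporters was not tested. The 3' to 5' signal ratio of the actin control, a measure of RNA integrity, was 4.001, 4.49 and 4.77 in HH1 replicates 1, 2 and 3, against 4.06, 5.57 and 6.21 in MH63 replicates 1, 2 and 3. The GAPDH ratio was 3.19, 2.63 and 2.72 in HH1, against 2.79, 3.15 and 3.89 in MH63, and the cyclophilin ratio was 1.77, 2.04 and 2.11 in HH1, against 1.69, 2.02 and 1.88 in MH63. HH1 replicate 3 lay within the MH63 range for actin, below it for GAPDH and above it for cyclophilin, and the part of RNA integrity in the results was not tested.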

How the data were processed

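Total RNA was extracted with Trizol and labelled cRNA was hybridised, per the labels' protocols. Each array has 1 column of intensity values, which are on a linear scale as deposited. MAS5 is named, without a version, per the submitters' processing notes, and the scaling of the arrays was not stated. No detection calls came with the values.

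Signals were log2-transformed with no offset. The 187 control probe sets were set aside, and of 57194 others the 28597 with the higher mean log2 signal (50%) were fitted. The two-sided test was limma's lmFit and trended eBayes (limma 3.58.1, R 4.3.3), Benjamini-Hochberg adjusted, at a threshold of 0.05. On simulated arrays of this comparison with 28597 probe sets, the fit recovered 40% of changes of 1 and 84% of changes of 2 on the log2 scale, with 5 false calls. The simulated noise was independent between probe sets and had the same SD in both genotypes. These shares therefore do not apply to genes such as OsABCG36 and OsABCG44, whose spread was larger in HH1. For each gene its brightest probe set was used.

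Names come from GEO's platform annotation, joined by Entrez number to symbols, synonyms and gene order of RefSeq assembly ASM3414082v1. The array's own build was not stated, so no coordinates are printed. Probe sets with 1 gene numbered 22436, 95 had several, and 34663 were not listed. IDs ending in _s_at or _x_at can bind related transcripts. Of the brightest probe sets, this concerns OsABCG37 and OsABCG44. That of OsABCG36 ends in _a_at, a type designed to bind several transcripts of 1 gene, and its binding to the neighbouring genes was not tested.

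The members, the related gene lists and the rule for named genes were chosen with earlier results of these data known. Any member could be named. Statistics were planned for the 6 brightest, the 6 highest and 6 lowest differences, the 6 smallest p and the brightest of each subfamily, which takes in all 10 tested genes. p-values measure the spread between the samples that the labels call biological replicates. Alternatives were quantile normalization, median centring, all probe sets, only the brightest 25%, adding the 25th percentile of signals (13.2) before log2, a floor at the reporter level, no trend, array weights, a replicate block and leaving out each array. Figures were drawn with matplotlib 3.10.9.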

Additional observations from a re-analysis of the deposited data

How the results depend on the processing

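No ABC probe set was called in 14 of the 15 alternatives, and 3 were without HH1 replicate 3, so leaving out 1 array gave 0 to 3 calls. The number at an unadjusted p under 0.05, a count added after seeing the data, was then 7. Over all probe sets there were 32 calls, against 54 when every probe set was tested, 8 when only the brightest 25% were, 50 under array weights and 17 with a replicate block. The last 2 changes have a cause that was not tested. With 1 array left out they ranged from 2 (without MH63 replicate 1) to 302 (without HH1 replicate 3). The other alternatives gave 30 to 37. The median log2 difference of the ABC genes stayed above 0 throughout, from 0.10 to 0.80 with 1 array left out. It was 0.28 with probe sets averaged per gene, 0.28 with no filter, 0.31 with array weights and 0.23 with only probe sets not ending in _s_at or _x_at. Of 149 combinations of a gene and an alternative, 139 kept the sign and the side of the threshold, 3 gained a call (OsABCG36, OsABCG37 and OsABCG44, above) and 7 changed sign, all with 1 array left out. These were OsABCC13 (0.047, 0.0052 and 0.076 without HH1 replicate 1, HH1 replicate 3 and MH63 replicate 1, over a range from -0.061 to 0.076), OsABCG39 (-0.17 without HH1 replicate 2, from -0.17 to 1.33), OsABCG42 (-0.012 without MH63 replicate 2, from -0.012 to 0.099) and OsABCI12 (-0.067 without HH1 replicate 2 and -0.027 without MH63 replicate 2, from -0.067 to 0.20). Whether the replicate numbers pair the arrays was not settled. Deviations of same-numbered arrays from their group means correlated at -0.12, 0.45 and 0.31 for replicates 1, 2 and 3. Those of differently numbered arrays correlated at -0.45 to 0.25. The replicate block called no ABC probe set, with a median of 0.45. Signal over background limits OsABCG32 and OsABCG50, which have no measured difference.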

Other observations

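The 32 probe sets called between the genotypes include those of 20 genes with a place in the gene order of the RefSeq annotation. 9 of these 20 lie on the chromosome that holds OsABCG48. The share of all tested genes on that chromosome was not counted, so 9 of 20 has no reference beside it. The nearest of the 9 to OsABCG48, LOC4350759, is separated from it by 74 genes. None of the 20 shares a chromosome with OsABCG39, OsABCG44, OsABCG45 or OsABCG50. For OsABCG36, the nearest called gene is LOC9269692, with 211 genes between. This position was looked up after the values were seen.

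Without HH1 replicate 3, where 1.06% of all tested probe sets passed, genes of 3 related lists passed as well, all higher in HH1. In the jasmonate list these were 5 of 19 tested genes, OsTIFY11a, OsTIFY11c, OsTIFY11e, OsTIFY9 and AOS1, with adjusted p from 0.0042 to 0.012 in limma. In the diterpenoid phytoalexin list they were 4 of 11, CYP76M5, OsMAS, OsDTS2 and OsKO4, with adjusted p from 0.021 to 0.037 in limma. Of these, CYP76M5 exceeded the reporter level only in HH1 replicates 1 and 2, with 93.9 and 136, and read from 15.7 to 28.2 elsewhere. It passed the brightness filter only through those arrays, so its pass adds nothing. In the phytate list 1 of 9 passed, OsITPK4, with an adjusted p of 0.010 in limma. With all 6 arrays none of these 10 passed. HH1 replicate 3 was left out after it was seen to differ, which favours all of these passes. None of them is therefore a test of the genotypes.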
